A study of Homo sapiens with 16 samples.

Results

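The 46 genes described here are the NF-kappaB subunits and their inhibitors, the adaptors of tumour necrosis factor receptors, and the cytokines, chemokines, receptors and effector genes tied to that pathway. They are 46 of the 19970 protein-coding genes placed on chromosomes 1 to 22 and X by RefSeq on GRCh38. The rule that lists them uses no value from the peak lists, but the genes were chosen with earlier results of these data known. For each gene, peak summits lying in the gene body or within 10 kb of either end were counted in 10 ChIP-seq peak lists. The cells were A375, an established human melanoma line. They were starved for 2 h and then received 10 ng/mL human recombinant TGFB1 for a further 2 h, or for the same time the vehicle, 4 mM HCl that contained 1 mg/mL BSA. Both arms were thus starved, and they differed by the ligand. The antibodies, at 10 µg each, recognised SMAD2/3, H3K27ac, MITF, ATF3 and JUNB. Chromatin was sheared to fragments of 200 to 300 bp. There was 1 library for each antibody and treatment, although the series text mentions a technical triplicate, so the differences given here have no replicates behind them and no p-value was computed. The labels give 3 experiment dates, 1 for SMAD2/3 and H3K27ac, 1 for MITF and 1 for ATF3 and JUNB, and each TGFB1 library had the date of its vehicle library. The 6 input samples were not analysed here.

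As background, TGFB1 binds a serine/threonine kinase receptor that phosphorylates SMAD2 and SMAD3, which then enter the nucleus and bind DNA weakly beside other factors, AP-1 among them. JUNB is an AP-1 subunit, ATF3 a stress-induced relative that binds AP-1 and cyclic AMP response elements, and MITF the lineage regulator of pigment cells, which binds E-boxes. NF-kappaB dimers are held in the cytoplasm by IkappaB proteins until kinases downstream of cytokine receptors release them. Their targets include chemokines, cytokines and the inhibitors themselves, and in melanoma the pathway is known for chemokine and interleukin secretion. NF-kappaB itself was not immunoprecipitated, so these data place other factors at its genes. H3K27ac marks active promoters and enhancers.

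The lists differed in length and depth. With TGFB1 and in vehicle they held 11406 and 1247 peaks for SMAD2/3, 80990 and 79172 for H3K27ac, 5037 and 5695 for MITF, 62997 and 49563 for ATF3, and 64407 and 38514 for JUNB. The library size implied by the peak values was 1.09 times that of vehicle with TGFB1 for SMAD2/3, 1.08 times for H3K27ac, 1.00 times for MITF, 4.41 times for ATF3 and 1.40 times for JUNB. The part that depth played in the ATF3 and JUNB comparisons was not tested. Markers did not separate the cell type at this window size: H3K27ac lay at 7 of 8 melanoma and neural crest markers with TGFB1 and 6 of 8 in vehicle, at 4 and 5 of 6 leukocyte markers, at 4 and 4 of 4 endothelial ones and at 3 and 3 of 4 epithelial ones. MITF had 27 H3K27ac summits with TGFB1 and 28 in vehicle, SOX10 12 and 10, PMEL 7 and 4, and NES 6 and 5. TYR had 3 and 3, S100B 2 and 2, MLANA 1 and 0, and DCT 0 in both. The highest counts among markers of the other cell types were at KRT8 (11 and 7), CDH1 (9 and 6) and PECAM1 (7 and 8). These counts were not matched on gene length.

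SMAD2/3 lay at 22 of the 46 genes with TGFB1 and at 2 in vehicle. The background was 28.2% of the 19924 other protein-coding genes with TGFB1 and 1.77% in vehicle. Longer genes have wider windows, so each gene was also set beside the 200 other protein-coding genes nearest to it in length. At their rate 10.8 of 46 genes would carry SMAD2/3 with TGFB1 and 0.79 in vehicle. With genes matched on H3K27ac in vehicle as well, a comparison added after the data had been seen, the TGFB1 number was 13.0. The 22 genes held 33 distinct summits, a mean of 0.761 per gene over all 46, against 0.345 per gene of similar length. At 21 of the 46 genes a SMAD2/3 peak overlapped no vehicle peak, against 27.4% of the other genes, and at 0 genes was a vehicle peak without a TGFB1 partner, against 0.397%. With a -log10 q of at least 5, 17 genes had SMAD2/3 with TGFB1, and 2 did when the TGFB1 list was cut to its 1247 strongest peaks, the length of the vehicle list. Inside gene bodies alone, 12 did, and under nearest-gene assignment 18 did. Other genes were not counted under these settings, so how the 46 genes compare with them there is not known.

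**Figure D1:**
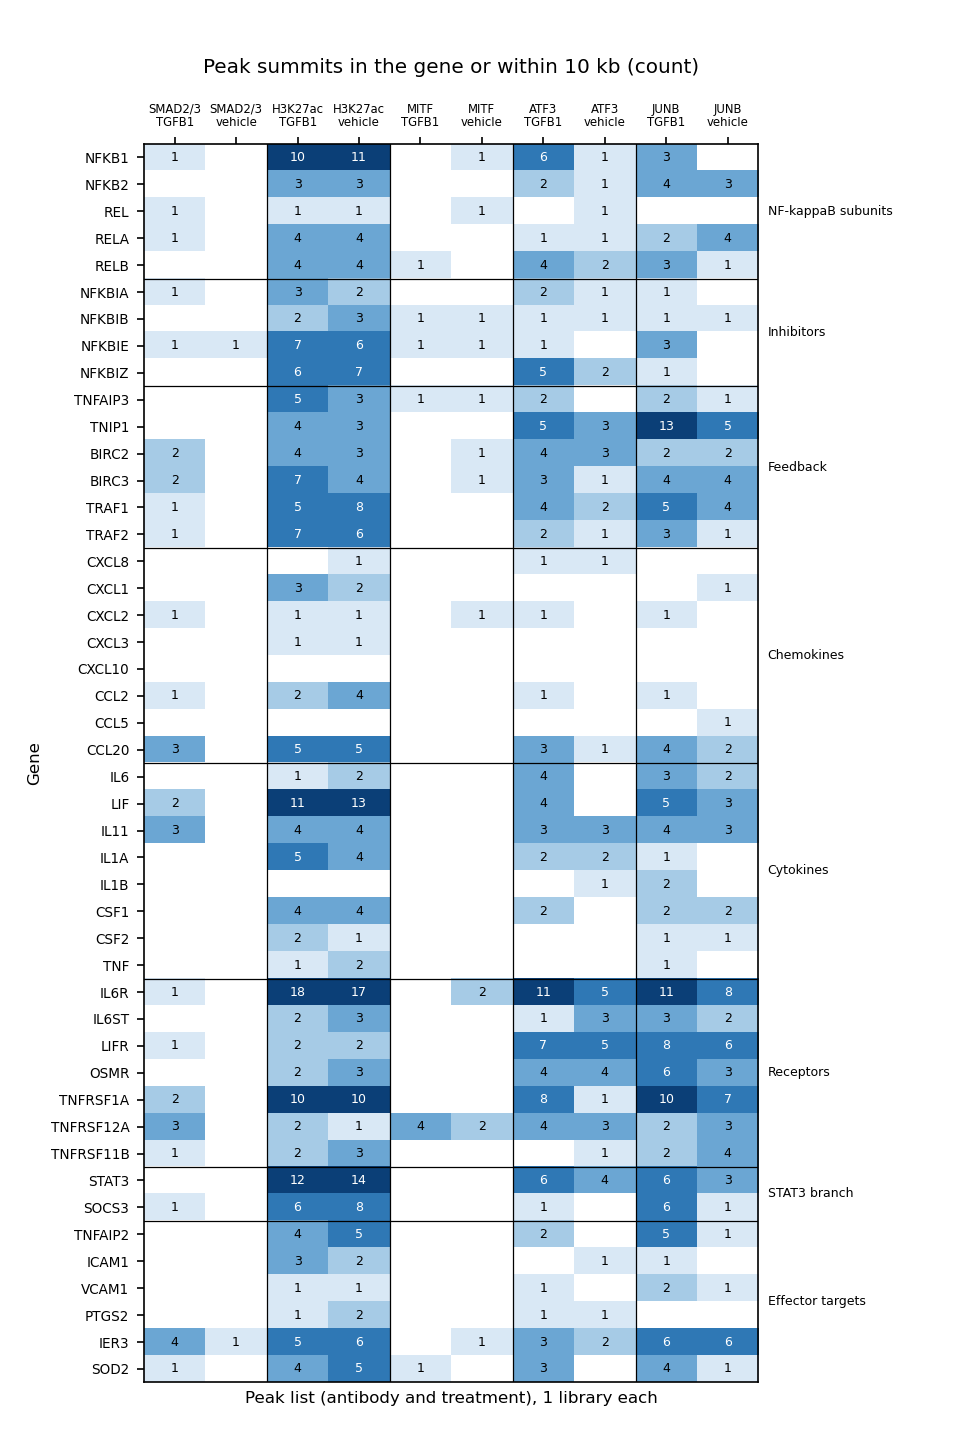
Number of peak summits in each of the 46 genes or within 10 kb (rows, grouped by role) in each of the 10 peak lists (columns, 1 library each). Blank cells are 0, and darker cells hold more summits. SMAD2/3 columns are filled at 22 genes with TGFB1 and at 2 in vehicle, while H3K27ac is filled at 42 and 43.

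By role, SMAD2/3 with TGFB1 lay at 3 of the 5 NF-kappaB subunits, 2 of the 4 IkappaB inhibitors, 4 of the 6 feedback and adaptor genes and 3 of the 8 chemokines. It lay at 2 of the 8 cytokines, 5 of the 7 receptors, 1 of the 2 genes of the STAT3 branch and 2 of the 6 effector targets. No background was computed by role. The share of similar-length genes with SMAD2/3 ran from 13.5% for CCL2 to 45.5% for LIFR. The feedback genes BIRC2 and BIRC3 share their peaks, and the peaks of the receptors IL6R and TNFRSF11B lay nearer to other genes. In vehicle the only genes with a summit were NFKBIE, an inhibitor, and IER3, an effector, and both summits lay nearer to other genes. Where SMAD2/3 was called with TGFB1, 8 genes had more than 1 summit and 14 had 1. The 4 genes with at least 3 were IER3 with 4, and TNFRSF12A, IL11 and CCL20 with 3 each. Of the 200 genes of similar length, 0 had as many as IER3, 2 as many as IL11, 3 as many as CCL20 and 3 as many as TNFRSF12A.

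Starts were taken from a RefSeq promoter table that holds 37 of the 46 genes. Of these 37, 7 had a SMAD2/3 summit of the TGFB1 list within 1 kb of a start, and their promoters are shown for that reason. Distances to a start were not measured at the other 9 genes, TNFRSF12A and IER3 among them. The windows are RefSeq sequence of GRCh38.p14, from 250 bases before the start to 50 after, 5′ to 3′ on the gene's strand. They are BIRC2 (chr11:102346964-102347263, plus strand), CXCL2 (chr4:74099146-74099445, minus), IL11 (chr19:55370414-55370713, minus), NFKBIA (chr14:35404700-35404999, minus), REL (chr2:60881324-60881623, plus), RELA (chr11:65662867-65663166, minus) and SOD2 (chr6:159693192-159693491, minus). CXCL8 (chr4:73740319-73740618, plus) was added after its values were seen, for the ATF3 peak at its AP-1 match. Capitals mark matches to AP-1 (TGANTCA), the cyclic AMP response element (TGACGTCA), the E-box (CACGTG), the SMAD palindrome (GTCTAGAC) or the NF-kappaB consensus on either strand, and overlapping matches run together.
BIRC2: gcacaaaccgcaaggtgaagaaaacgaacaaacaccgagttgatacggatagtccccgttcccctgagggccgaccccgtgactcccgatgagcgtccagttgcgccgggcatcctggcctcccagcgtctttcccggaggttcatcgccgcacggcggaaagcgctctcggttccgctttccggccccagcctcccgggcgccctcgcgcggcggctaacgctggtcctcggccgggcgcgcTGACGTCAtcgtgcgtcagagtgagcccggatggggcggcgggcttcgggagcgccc
CXCL2: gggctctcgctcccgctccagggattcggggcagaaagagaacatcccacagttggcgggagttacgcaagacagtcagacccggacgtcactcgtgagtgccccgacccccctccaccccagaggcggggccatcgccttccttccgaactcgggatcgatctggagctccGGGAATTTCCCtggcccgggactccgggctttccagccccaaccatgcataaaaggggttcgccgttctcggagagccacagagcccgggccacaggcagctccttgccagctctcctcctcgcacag
IL11: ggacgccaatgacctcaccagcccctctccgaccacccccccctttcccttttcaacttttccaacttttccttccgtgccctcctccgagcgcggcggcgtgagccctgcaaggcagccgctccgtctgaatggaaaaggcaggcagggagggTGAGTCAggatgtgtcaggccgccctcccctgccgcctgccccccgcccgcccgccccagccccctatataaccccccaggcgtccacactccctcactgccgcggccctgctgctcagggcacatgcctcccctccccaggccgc
NFKBIA: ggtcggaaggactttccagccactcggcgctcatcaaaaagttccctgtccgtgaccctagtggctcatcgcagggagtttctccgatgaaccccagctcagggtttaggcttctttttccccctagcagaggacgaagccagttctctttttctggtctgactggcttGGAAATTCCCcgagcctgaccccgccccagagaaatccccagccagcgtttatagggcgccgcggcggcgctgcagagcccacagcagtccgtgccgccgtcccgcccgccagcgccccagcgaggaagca
REL: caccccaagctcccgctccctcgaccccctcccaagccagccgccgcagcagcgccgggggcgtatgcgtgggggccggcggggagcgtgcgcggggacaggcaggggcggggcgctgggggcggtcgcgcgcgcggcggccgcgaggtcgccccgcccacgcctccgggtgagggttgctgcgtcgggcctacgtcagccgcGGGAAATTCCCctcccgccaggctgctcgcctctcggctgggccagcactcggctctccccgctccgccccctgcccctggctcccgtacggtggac
RELA: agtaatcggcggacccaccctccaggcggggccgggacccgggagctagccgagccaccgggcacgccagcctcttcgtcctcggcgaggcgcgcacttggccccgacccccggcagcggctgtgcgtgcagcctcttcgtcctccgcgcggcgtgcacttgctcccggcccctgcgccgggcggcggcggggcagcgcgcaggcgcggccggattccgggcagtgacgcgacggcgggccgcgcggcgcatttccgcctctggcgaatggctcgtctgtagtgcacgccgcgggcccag
SOD2: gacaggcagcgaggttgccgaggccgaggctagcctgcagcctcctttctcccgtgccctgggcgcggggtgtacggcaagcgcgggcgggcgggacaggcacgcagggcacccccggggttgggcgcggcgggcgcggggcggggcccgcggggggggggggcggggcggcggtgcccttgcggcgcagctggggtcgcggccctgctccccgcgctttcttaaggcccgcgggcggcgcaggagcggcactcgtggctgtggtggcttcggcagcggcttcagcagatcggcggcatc
CXCL8: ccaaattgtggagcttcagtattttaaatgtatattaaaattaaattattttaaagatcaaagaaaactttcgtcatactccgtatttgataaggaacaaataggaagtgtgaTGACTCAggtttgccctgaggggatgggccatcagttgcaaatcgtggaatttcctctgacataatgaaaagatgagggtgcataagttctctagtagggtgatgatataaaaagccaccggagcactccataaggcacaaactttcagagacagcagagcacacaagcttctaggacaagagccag

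The BIRC2 window holds a cyclic AMP response element whose first base is 7 bases before the start, within a SMAD2/3 peak with TGFB1. The SMAD2/3 summit lay 18 bases from it. ATF3 summits lay 6 bases away with TGFB1 and 12 in vehicle, and JUNB summits lay 8 bases away with TGFB1 and 30 in vehicle. In the IL11 window the AP-1 match starts 96 bases before the start, and the SMAD2/3 summit lay 7 bases from it with TGFB1, with JUNB summits 75 bases away with TGFB1 and 86 in vehicle. REL carries overlapping NF-kappaB matches, 24 and 26 bases from its SMAD2/3 summit. By the caller's -log10 p the REL peak ranked 11372 of 11406 and the SOD2 peak 10960, so both were among the weakest. NFKBIA and CXCL2 also carry an NF-kappaB match, but their SMAD2/3 summits lay outside the window, 722 and 204 bases into the gene. RELA and SOD2 have no match in capitals. CXCL8 had an ATF3 summit 3 bases from its AP-1 match with TGFB1.

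Over all 54 promoter windows, which cover 37 of the 46 genes, the NF-kappaB consensus occurred in 18 windows of 16 genes (33.3%, against 6.46% of the 22077 windows of other genes). AP-1 occurred in 7 windows of 6 genes (13.0% against 6.13%), CXCL8, IL11, IL1A, IL6R, NFKBIB and OSMR. The cyclic AMP response element was in both windows of BIRC2, which overlap (3.70% against 2.26%), and the E-box in TNFAIP3 alone (1.85% against 8.36%). The SMAD palindrome was in 0 windows (against 0.217%), and the short SMAD element CAGAC was in 24 (44.4% against 44.9%). A match is a run of letters, not a binding site. The genes were listed for their ties to NF-kappaB, so their share of NF-kappaB matches is not independent of that choice. TNFRSF12A, NFKBIE, IER3, CSF1, LIF, TNFRSF11B, CCL2, CCL5 and RELB had no window in the table used.

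**Figure D2:**
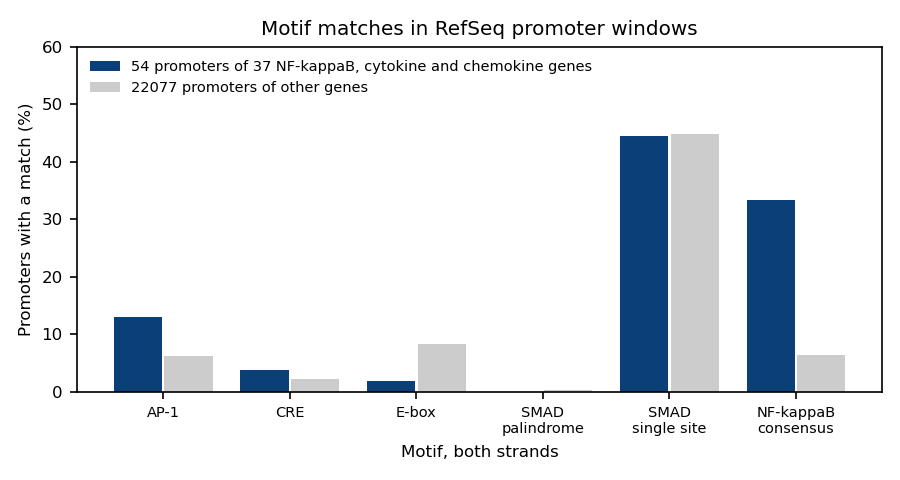
Percent of RefSeq promoter windows with at least 1 match on either strand, for the windows of the 46 genes (54 windows of 37 genes, dark) and of other genes (22077 windows, grey). The NF-kappaB consensus was in 33.3% of the dark bars' windows and 6.46% of the grey ones. The single SMAD site was in 44.4% and 44.9%. The 46 genes were listed for their ties to NF-kappaB.

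Among receptors, TNFRSF12A, which binds TWEAK and signals to NF-kappaB, had the strongest SMAD2/3 peak of the 46 genes that was absent from vehicle. Fold enrichment, the caller's ratio of the summit to its local background, and -log10 p are the authors' deposited values and describe peaks within one list. The reads at a summit were solved from those values. The TNFRSF12A peak, on chromosome 16 from 3020282 to 3021194, had a fold enrichment of 12.6 and a -log10 p of 63.0, from 79 reads over a background of 5.33. Its other SMAD2/3 peaks, also TGFB1-only, had fold enrichments of 8.72 and 7.89. The gene had 4 MITF summits with TGFB1 and 2 in vehicle, and 4 ATF3 summits with TGFB1 and 3 in vehicle. A JUNB peak from 3020566 to 3024423 (fold enrichment 44.8, 220 reads) covered most of the gene with TGFB1, where vehicle had separate peaks, so its JUNB summits numbered 2 with TGFB1 and 3 in vehicle.

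TNFRSF1A, the principal receptor of tumour necrosis factor, had 2 SMAD2/3 summits with TGFB1 and 0 in vehicle, of fold enrichment 4.42 and 3.09. Its ATF3 summits numbered 8 with TGFB1 and 1 in vehicle, and its JUNB summits 10 and 7. None of the 200 genes of similar length had as many ATF3 or JUNB summits with TGFB1. It was the most widely acetylated of the 46 genes, with 15.6 kb of H3K27ac peaks with TGFB1 and 14.2 kb in vehicle. The ATF3 peak shared by both treatments had 128 reads over a background of 2.49 with TGFB1. A TGFB1-only ATF3 peak beside it had 83 reads over 2.72.

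The receptors of the interleukin 6 family carried AP-1 family factors in both treatments. With TGFB1 most genes of similar length did too. JUNB lay at 82% (for IL6R) to 90.5% (for LIFR) of them, and ATF3 at 79.5% (for IL6ST) to 92% (for LIFR). Of 200 genes of similar length, 0 had as many ATF3 summits with TGFB1 as IL6R, and 1 as many JUNB summits. For LIFR these numbers were 28 and 29, for OSMR 75 and 35, and for IL6ST 159 and 91. IL6R, the ligand-binding chain, had 11 ATF3 summits with TGFB1 and 5 in vehicle. It had 11 JUNB summits with TGFB1 and 8 in vehicle, and 18 and 17 of H3K27ac. Its AP-1 match lay 21 bases from a JUNB summit with TGFB1 and 2 bases from one in vehicle. IL6R's SMAD2/3 peak, with 16 reads over 2.25, lay nearer to SHE. LIFR, a chain of the leukaemia inhibitory factor receptor, had 8 JUNB summits with TGFB1 and 6 in vehicle, and 7 and 5 of ATF3. Its SMAD2/3 peak on chromosome 5 (38603757 to 38604064, fold enrichment 9.62, 18 reads) was the only one of the 33 without H3K27ac with TGFB1. IL6ST, the shared signalling chain, and OSMR, the oncostatin M receptor, had 0 SMAD2/3 summits. OSMR had 4 ATF3 summits in each treatment, but in each 3 of the 4 belonged to peaks absent from the other treatment. TNFRSF11B, a decoy receptor, had a SMAD2/3 peak of 16 reads that lay nearest to COLEC10.

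IER3, an immediate early gene with a part in survival, had the SMAD2/3 peak with the highest -log10 p of the set in both lists. With TGFB1 it spanned 30741808 to 30743930 on chromosome 6, with 68 reads over 2.46, and in vehicle 30742120 to 30743383, with 45 reads over 2.41. The shortest peaks of the lists, which track how far reads were extended, were 183 bp with TGFB1 and 311 bp in vehicle, so summit reads of the SMAD2/3 pair are not on the same footing. The TGFB1 summit lay 0.259 kb outside IER3 and 0.253 kb outside FLOT1, the neighbouring gene. The vehicle summit lay 0.439 kb outside IER3 and 0.073 kb outside FLOT1. The other 3 SMAD2/3 peaks were TGFB1-only, with 31, 23 and 19 reads. JUNB had 6 summits in each treatment and H3K27ac had 5 with TGFB1 and 6 in vehicle. SOD2, the mitochondrial superoxide dismutase, had a SMAD2/3 summit 30 bases before a start with 13 reads over 3.28. It had 3 ATF3 summits with TGFB1 and 0 in vehicle, and 4 and 1 of JUNB. TNFAIP2, the adhesion molecules ICAM1 and VCAM1, and PTGS2, the inducible cyclooxygenase, had 0 SMAD2/3 summits in both treatments.

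**Figure D3:**
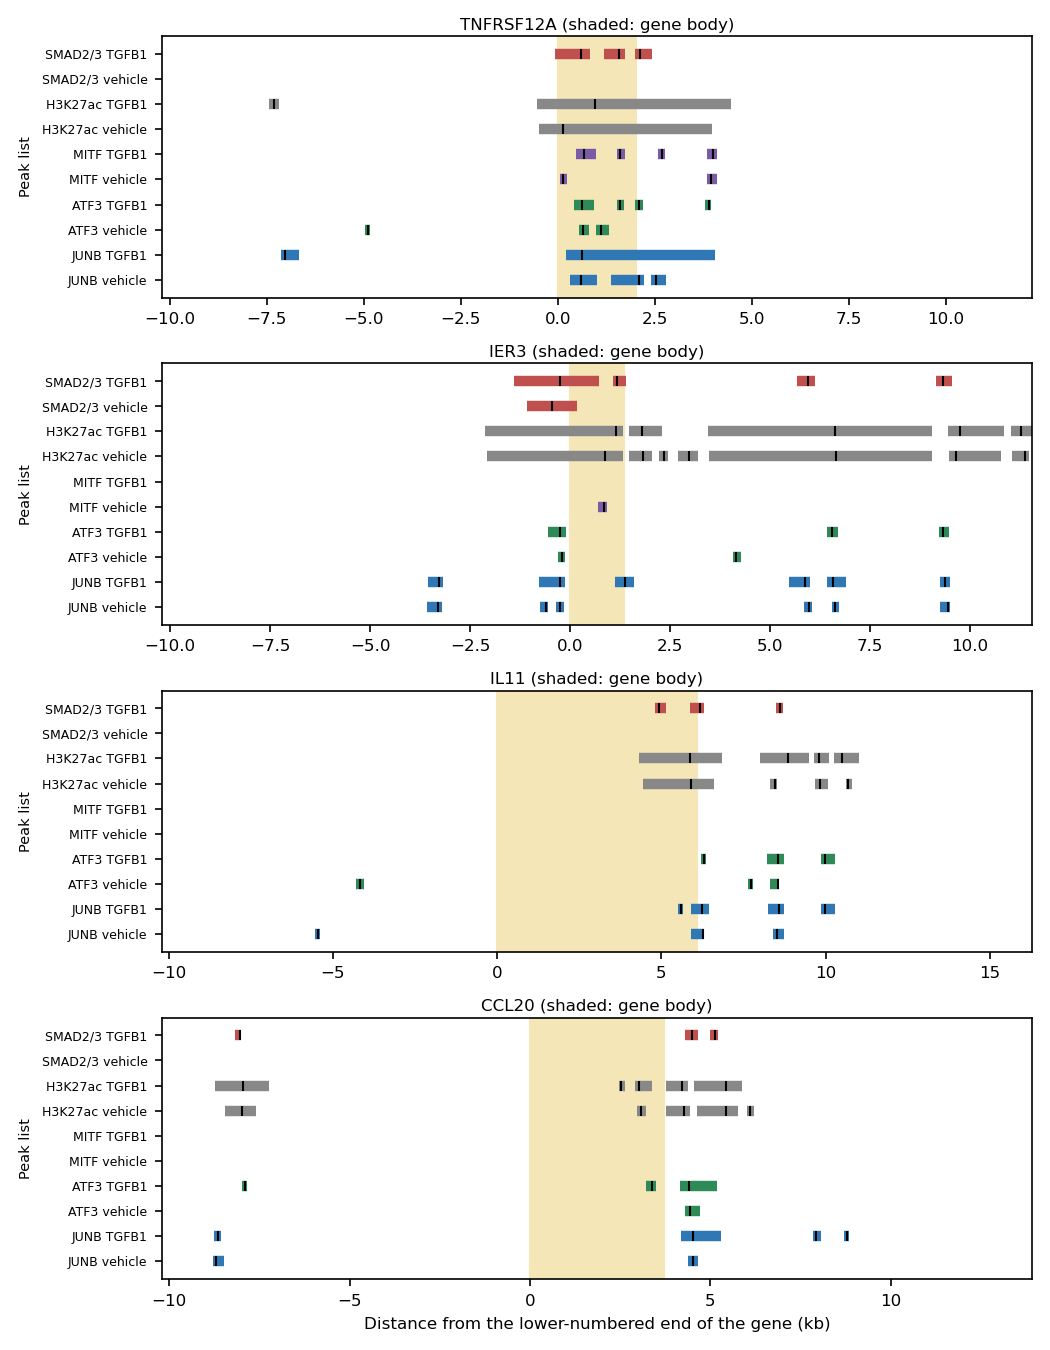
Peaks of the 10 lists at the 4 genes with at least 3 SMAD2/3 summits with TGFB1. The x axis is the distance in kb from the lower-numbered end of the gene, the gene body is shaded, bars are peaks and black ticks are summits. SMAD2/3 rows hold 3 or 4 peaks with TGFB1 at each gene, and in vehicle a peak at IER3 alone.

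Of the cytokines, IL11 and LIF had SMAD2/3. IL11, an interleukin 6 family member, had 3 SMAD2/3 summits with TGFB1 and 0 in vehicle. They lay 100 and 2535 bases before the start (29 and 23 reads) and inside the gene (27 reads). JUNB had 4 summits with TGFB1 and 3 in vehicle, and its strongest IL11 peak, 2497 bases before the start, had 138 reads over 3.93 with TGFB1. LIF, the leukaemia inhibitory factor, had 2 SMAD2/3 summits with TGFB1, of 19 and 16 reads, and 0 in vehicle. ATF3 had 4 summits at LIF with TGFB1 and 0 in vehicle, JUNB had 5 and 3, and H3K27ac had 11 and 13.

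IL6 had 0 SMAD2/3 summits in both lists. ATF3 had 4 summits at IL6 with TGFB1, of 53, 28, 20 and 14 reads, and 0 in vehicle. JUNB had 3 with TGFB1 and 2 in vehicle. The strongest ATF3 peak lay in the gene with a fold enrichment of 16.3. IL1A and IL1B, the interleukin 1 genes, had 1 and 2 JUNB summits with TGFB1 and 0 in vehicle, and IL1B had no H3K27ac. CSF1, which supports macrophages, had 2 ATF3 summits with TGFB1 and 0 in vehicle. CSF2 and TNF had 0 ATF3 summits in both and 1 JUNB summit each with TGFB1, and in vehicle CSF2 had 1 and TNF had 0.

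The 8 chemokine genes had 6 ATF3 summits with TGFB1 and 2 in vehicle, and 6 and 4 of JUNB. CCL20 alone held 3 of the 6 ATF3 and 4 of the 6 JUNB summits with TGFB1. CXCL10 had no summit in any of the 10 lists, CXCL3 had H3K27ac alone and CCL5 a JUNB summit in vehicle alone. CCL20, which attracts CCR6-bearing lymphocytes, had 3 SMAD2/3 summits with TGFB1 and 0 in vehicle, the strongest on chromosome 2 from 227818142 to 227818494 (fold enrichment 9.87, 21 reads). A JUNB peak 0.799 kb outside CCL20 was present in both treatments, with 94 reads over 3.28 with TGFB1. CXCL2, a neutrophil attractant, had a SMAD2/3 peak (12 reads over 1.13) and an ATF3 and a JUNB summit with TGFB1, with 0 of all 3 in vehicle and an MITF summit in vehicle instead. CCL2, the monocyte attractant, had 1 summit each of SMAD2/3, ATF3 and JUNB with TGFB1 and 0 in vehicle, the SMAD2/3 one of 8 reads. CXCL8, another neutrophil attractant, had 1 ATF3 summit in each treatment at different positions, 0 JUNB summits, and H3K27ac in vehicle alone (15 reads over 2.77). CXCL1 had JUNB in vehicle alone, with its summit 4 and 2 bases from overlapping NF-kappaB matches.

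Of the NF-kappaB subunits, NFKB1, RELA and REL had 1 SMAD2/3 summit each with TGFB1 and 0 in vehicle, and NFKB2 and RELB had 0 in both. The NFKB1 peak had 13 reads over 1.23, the RELA peak 19 over 3.28 and the REL peak 15 over 4.92. NFKB1, which encodes p105 and p50, had 6 ATF3 summits with TGFB1 and 1 in vehicle, and 3 and 0 of JUNB. RELA (p65) had 2 JUNB summits with TGFB1 and 4 in vehicle. REL was the only gene of the 22 with SMAD2/3 and neither ATF3 nor JUNB with TGFB1. Its SMAD2/3 peak was among the weakest of that list. Of the inhibitors, NFKBIA (IkappaB alpha) had a SMAD2/3 peak of 19 reads over 1.65 and a TGFB1-only JUNB peak of 30 reads over 2.54, with 0 of both in vehicle. NFKBIE had SMAD2/3 in both treatments, with 17 reads over 2.33 with TGFB1 and 14 over 2.41 in vehicle, and both peaks lay nearest to SLC35B2. The peaks, 44256961 to 44257298 and 44257260 to 44257710 on chromosome 6, overlapped only at their ends, with summits at 44257077 and 44257411. By -log10 p the vehicle peak ranked 1158 of 1247. NFKBIZ had 5 ATF3 summits with TGFB1 and 2 in vehicle, among them a peak of both lists 146 bases before a start (110 reads over 1.77 with TGFB1), and NFKBIB had 1 in each.

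BIRC2 and BIRC3, the adjacent genes of the cellular inhibitors of apoptosis, are close enough that windows overlap, and their 2 SMAD2/3 peaks are the same peaks. Those peaks, 1142 and 22 bases before the BIRC2 start, had 17 reads each. TRAF1 had a SMAD2/3 peak of 24 reads over 2.18 and TRAF2 one of 14 over 1.80, both TGFB1-only; both genes encode adaptors of the receptors. TNIP1, which encodes a partner of the deubiquitinase A20, had 13 JUNB summits with TGFB1 and 5 in vehicle, and none of its 200 genes of similar length had as many with TGFB1. TNFAIP3, which encodes A20, had 2 ATF3 summits with TGFB1 and 0 in vehicle. In the STAT3 branch, SOCS3, the feedback inhibitor of the kinases of that pathway, had 1 SMAD2/3 summit with TGFB1 (25 reads over 4.92) and 0 in vehicle, and 6 and 1 of JUNB. STAT3 had 0 SMAD2/3 summits, 6 ATF3 summits with TGFB1 and 4 in vehicle, and 6 and 3 of JUNB.

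SMAD2/3 at these genes lay mostly on acetylated chromatin, and mostly with JUNB. Of the 33 SMAD2/3 peaks with TGFB1, 32 overlapped H3K27ac of the TGFB1 list (97.0%, against 75.7% of all 11406 SMAD2/3 peaks) and 31 overlapped H3K27ac of the vehicle list (93.9% against 69.5%). JUNB of the TGFB1 list overlapped 26 (78.8% against 62.1%) and of the vehicle list 17 (51.5% against 48.0%). ATF3 overlapped 16 with TGFB1 (48.5% against 45.9%) and 6 in vehicle (18.2% against 18.6%). MITF overlapped 3 with TGFB1 (9.09% against 11.9%) and 4 in vehicle (12.1% against 13.0%). Both ATF3 and JUNB of the TGFB1 lists overlapped 16 peaks, and 14 of the 33 summits were inside the gene counted. The 33 peaks were taken in or within 10 kb of a gene, while the 11406 were not limited to such windows. The part this played in the shares was not tested.

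**Figure D4:**
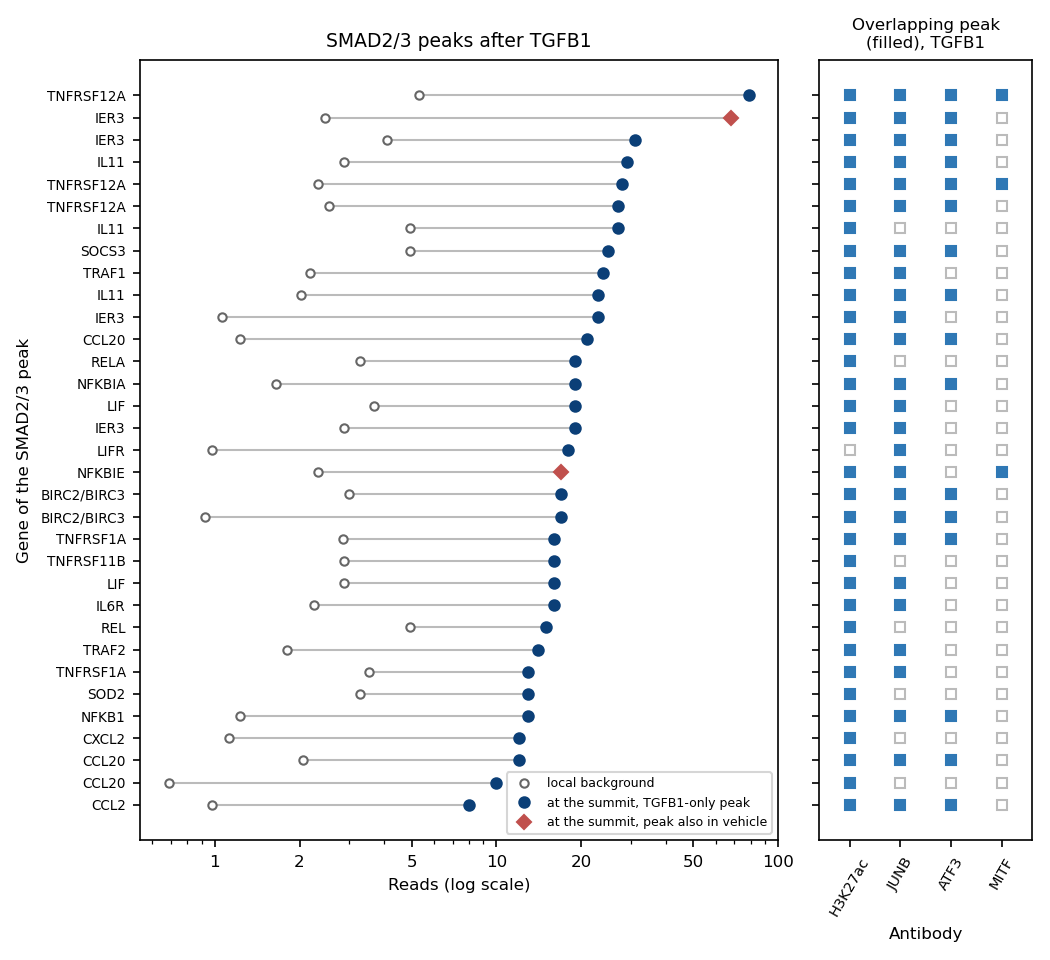
The 33 SMAD2/3 peaks of the TGFB1 library at the 46 genes, 1 row per peak. Left, reads at the summit (filled) and local background (open) on a log scale, with diamonds for the 2 peaks that overlap a vehicle peak by any base. Right, filled squares where a peak of another antibody in the TGFB1 library overlaps. Reads at the summit span 8 at CCL2 to 79 at TNFRSF12A, and the H3K27ac column is filled in 32 rows.

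H3K27ac lay at 42 of the 46 genes with TGFB1 and at 43 in vehicle, where the background was 80.9% and 80.7% of the other genes. Genes of similar length would give 35.4 with TGFB1 and 35.4 in vehicle. The summits numbered 182 with TGFB1 and 192 in vehicle. More summits were called with TGFB1 at 13 genes (22.8% of other genes), more in vehicle at 18 (24.6%) and an equal number at 15. A TGFB1-only peak lay at 19 genes (background 31.5%) and a vehicle-only peak at 22 (30.6%). Most acetylation was common to both: 85.2% of the TGFB1 peaks at these genes and 84.4% of the vehicle ones overlapped a peak of the other treatment, against 78.2% and 83.2% of all peaks. CCL5, CXCL10 and IL1B had none in either list. The strongest TGFB1-only peaks were at TNIP1 (25 reads), TNFRSF1A (24), NFKB1 and IL1A (14 each), LIF (21) and IL6R (18), and none overlapped SMAD2/3. Those counted for TNFRSF1A and IL6R lay nearer to SCNN1A and in SHE. The strongest vehicle-only ones were at CCL20 (12 reads), PTGS2 (24), CXCL8 (15), TNFRSF1A (15), BIRC2 (12) and IL6R (25), and that counted for TNFRSF1A lay in PLEKHG6. The TGFB1-only count was 9 and the vehicle-only count 7 among peaks with a -log10 q of at least 5. Other genes were not counted at that threshold.

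JUNB lay at 39 of the 46 genes with TGFB1 and 31 in vehicle, against 72.5% and 55.9% of the other genes and 30.7 and 22.2 genes at the rate of similar length. Summits numbered 142 and 85, with more with TGFB1 at 30 genes (52.9% of other genes), more in vehicle at 5 (9.01%) and equal at 11. A TGFB1-only peak lay at 36 genes (62.2% of other genes) and a vehicle-only peak at 13 (28.9%). JUNB was called with TGFB1 and not in vehicle at 10 genes, namely CCL2, CXCL2, ICAM1, IL1A, IL1B, NFKB1, NFKBIA, NFKBIE, NFKBIZ and TNF. That pattern held at 20.7% of the other genes and would hold at 10.6 of 46 genes of similar length, so the count is near the background. The reverse held at 2 genes, CCL5 and CXCL1, against 4.17% of the other genes. The strongest TGFB1-only JUNB peaks were at TNFRSF1A (71 reads over 7.87), TNIP1 (44 over 5.25), NFKBIA, and IL11, where the peak (32 over 3.27) lay nearer to TMEM190. The strongest vehicle-only ones, at TNFRSF11B, LIFR, CXCL1 and TRAF1, had 16 to 20 reads, and that counted for TRAF1 lay in PHF19. Of the peaks common to both treatments, the highest were at TNFRSF12A, IL11, LIFR and CCL20, and that of LIFR (119 reads over 5.90) lay nearer to EGFLAM. The TGFB1 library was 1.40 times as deep. Inside gene bodies alone, 26 genes had JUNB with TGFB1 and 18 in vehicle. With the TGFB1 list cut to the length of the vehicle list, 34 genes had JUNB. Other genes were not counted under these settings.

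ATF3 lay at 36 of the 46 genes with TGFB1 and 29 in vehicle, against 70.1% and 48.8% of the other genes and 29.1 and 18.9 genes at the rate of similar length. Summits numbered 112 and 57. More were called with TGFB1 at 28 genes (54.1% of other genes) and more in vehicle at 5 (10.5%). A TGFB1-only peak lay at 31 genes (63.6% of other genes) and a vehicle-only peak at 20 (31.5%). The genes with ATF3 with TGFB1 and not in vehicle were CCL2, CSF1, CXCL2, IL6, LIF, NFKBIE, SOCS3, SOD2, TNFAIP2, TNFAIP3 and VCAM1, 11 in all. That pattern held at 27.5% of the other genes and would hold at 13.3 of 46 genes of similar length, so the count is no higher than the background. The reverse held at 4 genes, ICAM1, IL1B, REL and TNFRSF11B, against 6.1% of the other genes. The strongest TGFB1-only ATF3 peaks were at TNFRSF1A, IL6, SOD2 (40 reads over 1.59) and IL6R (41 over 2.02, 75 bases before a start). The strongest vehicle-only ones, at REL, NFKB1, STAT3 and IL6ST, had 8 or 9 reads and overlapped no peak of the other antibodies. Peaks common to both were highest at TNFRSF1A, NFKBIZ, LIFR and TNFRSF12A, with 85 to 128 reads with TGFB1, and that of LIFR lay nearer to EGFLAM. The TGFB1 library was 4.41 times as deep. Inside gene bodies alone, 21 genes had ATF3 with TGFB1 and 17 in vehicle. With the TGFB1 list cut to the length of the vehicle list, 34 genes had ATF3. Other genes were not counted under these settings. All 3 of SMAD2/3, ATF3 and JUNB lay at 20 of the 46 genes with TGFB1, against 23.7% of the other genes and 8.46 genes at the rate of similar length.

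MITF was sparse. It lay at 6 of the 46 genes with TGFB1 and 11 in vehicle, against 21.7% and 23.3% of the other genes and 9.26 and 9.98 genes at the rate of similar length. A TGFB1-only peak lay at 3 genes (10.7% of other genes) and a vehicle-only peak at 8 (12.8%). MITF was called in both treatments at 4 genes, NFKBIB, NFKBIE, TNFAIP3 and TNFRSF12A, against 14.4% of the other genes. It was called with TGFB1 and not in vehicle at 2, RELB and SOD2, against 7.31%. The SOD2 summit lay in both SOD2 and WTAP, 68 bases before a SOD2 start other than that beside its SMAD2/3 peak. MITF patterns the other way were as follows. MITF was called in vehicle and not with TGFB1 at 7, BIRC2, BIRC3, CXCL2, IER3, IL6R, NFKB1 and REL, and BIRC2 and BIRC3 share their peak. That compares with 8.87% of the other genes and 3.80 genes at the rate of similar length. The strongest vehicle-only peak, counted for both BIRC2 and BIRC3, had 21 reads over 0.675 and lay 243 bases before the BIRC2 start. At TNFAIP3 the peak of both lists had 17 reads over 0.571 with TGFB1, 32 bases before the start and 44 bases from the E-box. The other strongest peaks common to both were at NFKBIE (fold enrichment 11.8 with TGFB1), where it lay in SLC35B2, at NFKBIB (9.32) and at TNFRSF12A (9.03), where it lay in THOC6. The TGFB1-only peaks at RELB, SOD2 and TNFRSF12A had 19, 11 and 17 reads, and the vehicle-only ones at NFKB1 and REL 12 each. With windows of 50 kb, 18 genes had MITF with TGFB1 and 20 in vehicle, and other genes were not counted at that width.

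**Figure D5:**
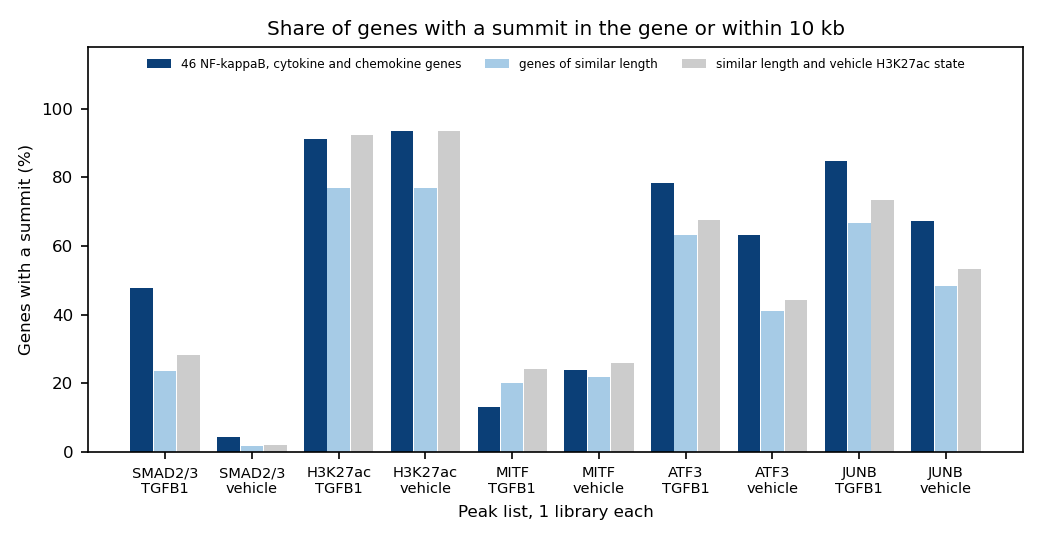
Percent of genes with a summit in the gene or within 10 kb in each peak list: the 46 genes (dark), the genes of similar length (light) and the genes of similar length and the same vehicle H3K27ac state (grey). The SMAD2/3 bars with TGFB1 are 47.8%, 23.6% and 28.2%, and the MITF bars with TGFB1 are 13.0%, 20.1% and 24.2%. For H3K27ac in vehicle the grey bar equals the dark one because the genes were matched on that state.

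A further 57 genes of the same pathways, among them the IkappaB kinases, the interleukin 1 receptor adaptors, other chemokines and the Janus kinases, were counted in the same way. SMAD2/3 lay at 18 of the 57 with TGFB1 and 0 in vehicle, where genes of similar length would give 15.3 and 0.945. JUNB lay at 45 with TGFB1 and 36 in vehicle (40.6 and 31.1 for similar length), and ATF3 at 43 and 27 (38.8 and 27.04). H3K27ac lay at 48 and 47 (45.7 and 45.7), and MITF at 9 and 14 (11.8 and 12.9). BCL3, a nuclear IkappaB protein, had 3 SMAD2/3 summits with TGFB1 and 0 in vehicle, and was named after its values were seen.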

How the data were processed

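Chromatin immunoprecipitation libraries of A375 cells, 1 for each of 5 antibodies and 2 treatments, were analysed from their peak lists. Reads were aligned with Bowtie to GRCh38 and peaks called with MACS2 2.0, per the submitters' processing notes. The control used in calling and the handling of duplicates are not given in the sources used here. The fold enrichment ratio, the -log10 p and the -log10 q of each peak are the authors' deposited values. The score column, as deposited by the authors, was not used.

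A summit was counted for a gene when it lay in the RefSeq gene body or within 10 kb, and a treatment-only peak shared no base with a peak of the other treatment. Reads at a summit were solved from fold enrichment and -log10 p, with a pseudocount of 1 in the fold. They came out whole (-log10 p within 0.001) for 94.0% (SMAD2/3 in vehicle) to 100% of the peaks with a -log10 p under 30. Library sizes of 6.37 to 47.7 M reads were estimated as the lowest background times an assumed 2.7 Gb genome, over the shortest peak's width. These sizes limit the precision of weak peaks.

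The genes and lists were chosen with earlier results of these data known. Peak values are given by rule for each gene with SMAD2/3, and for the strongest treatment-only or shared peaks of the other antibodies (6 per treatment for H3K27ac, 4 per class for the rest). Other peaks were chosen after their values were seen. Marker genes and promoter motifs were searched as described. Alternatives were other gene windows, stricter peaks, other overlap rules, nearest-gene assignment, equal list lengths and other length matching. Counting, overlaps and solved reads were tested on simulated data. Python 3.11.15, pandas 2.3.3, numpy 2.4.6, scipy 1.17.1 and matplotlib 3.10.9 were used.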

Additional observations from a re-analysis of the deposited data

How the results depend on the processing

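With 1 library per antibody and treatment, none of the differences has an error, and 21 of the 33 SMAD2/3 peaks with TGFB1 had at most 20 reads at the summit. No paired analysis was possible because each antibody and treatment had 1 library. Each count of genes was taken again under other settings, for the 46 genes alone, and 63 of the 95 counts stayed within 1.5 times. Only the counts that moved further are listed here. Narrower windows, stricter peaks and shorter lists lower a count by construction, and wider windows raise it. Inside gene bodies alone, the genes with a summit were 12 (SMAD2/3 with TGFB1), 0 (SMAD2/3 in vehicle), 7 (MITF in vehicle), 21 and 17 (ATF3 with TGFB1 and in vehicle) and 18 (JUNB in vehicle). Within 50 kb they were 18 and 20 for MITF with TGFB1 and in vehicle. SMAD2/3 with TGFB1 lay at 2 genes at equal list length, and SMAD2/3 in vehicle at 1 with a -log10 q of at least 5 and at 0 under nearest-gene assignment. Genes with a treatment-only peak in gene bodies alone numbered 12 for SMAD2/3 with TGFB1, 11 and 12 for H3K27ac with TGFB1 and in vehicle, 5 for MITF in vehicle, 20 and 12 for ATF3 and 21 and 6 for JUNB with TGFB1 and in vehicle. Within 50 kb they were 33 (SMAD2/3 with TGFB1), 34 (H3K27ac with TGFB1), 9 (MITF with TGFB1) and 21 (JUNB in vehicle). With a -log10 q of at least 5 they were 9 and 7 for H3K27ac with TGFB1 and in vehicle, 7 for ATF3 in vehicle and 7 for JUNB in vehicle. Under reciprocal overlap of 50% they were 1 for SMAD2/3 in vehicle, 32 and 34 for H3K27ac with TGFB1 and in vehicle and 23 for JUNB in vehicle, and with a margin of 500 bp they were 13 for H3K27ac in vehicle. Matching other genes on length and vehicle H3K27ac, added after the data had been seen, gave shares of 28.2% for SMAD2/3 with TGFB1, 92.2% and 93.5% for H3K27ac with TGFB1 and in vehicle, 24.2% and 25.8% for MITF, 67.6% and 44.2% for ATF3, and 73.5% and 53.2% for JUNB. That matching fixed the vehicle H3K27ac share at that of the 46 genes, so its H3K27ac shares are no comparison. With 10 strata of length the H3K27ac shares were 75.0% with TGFB1 and 74.9% in vehicle. For the genes nearest in length they were 76.9% and 76.9%.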
